A study of Strongylocentrotus purpuratus with 10 samples.

Results

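Brachyury chromatin immunoprecipitation (ChIP) was described here from the peak lists of antibody libraries 1 and 2 (labelled AB1 and AB2), each set against its own input library (Input1 and Input2). All rows of both lists entered: 1484 peaks of library 1 and 7459 peaks of library 2, or 8943 of the 9433 peak rows deposited when the authors' combined set is counted too. These 4 libraries belong to a series of 10, of which the other 6 are RNA libraries of 3 brachyury morphant and 3 control samples. Whole blastulae of Strongylocentrotus purpuratus, the purple sea urchin, were fixed for ChIP 24 h after fertilisation, having been raised at 15 °C. No knockdown or other treatment is labelled for the ChIP embryos. Chromatin was fixed for 12 min in 1% formaldehyde and broken to fragments averaging 100 to 200 bp, and single reads of 50 bp were sequenced. The labels do not say whether AB1 and AB2 are different antibodies or different embryo samples, so the lists are 2 separate measurements rather than replicates with a known spread. With 1 antibody library per list no test between conditions was possible, and every value below is a description of these libraries.

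Brachyury is a T-box transcription factor, a DNA-binding protein that is among the oldest known regulators of gastrulation. In sea urchin embryos it is expressed around the future blastopore, in the endoderm precursors of the vegetal plate, and in the oral field where the mouth opens. ChIP recovers DNA that the antibody pulls down with the protein, and the input library shows how often the same DNA appears in the chromatin before pull-down. Enrichment is therefore read from the antibody signal relative to the input, since a place that is over-represented in chromatin is high in both. In whole embryos, binding in few cells and weak binding in many cannot be told apart.

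Each peak carries the antibody signal, the input signal, their ratio (the fold over input), a distribution score between 0 and 1 for the shape of the read profile, a score and a false discovery rate. All of these are the authors' own values. The score equalled the antibody minus the input signal times the distribution score, within 0.02, in 1484 of 1484 peaks of library 1 and 7458 of 7459 peaks of library 2. It is therefore a difference and not a ratio. Both lists stop at a score of 0.5, and signal at places below that floor is not given. Every library 1 peak was 136 bp wide and every library 2 peak 284 bp. No value gives read totals, so the depth of the 4 libraries is unknown, and the sources used here do not give the scaling of the signals.

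Antibody signal in library 1 had a median of 0.81 and ran from 0.57 to 11.35, while its input had a median of 0.23 and ran from 0.05 to 9.06. The median fold was 3.52, with a range of 1.08 to 33.54. In library 2 the median antibody signal was 1.38 (1.01 to 74.09) and the median input signal 0.57 (0.13 to 20.66). The median fold was 2.36, with a range of 1.09 to 77.94. Library 1 thus had the higher typical fold, and library 2 the higher extremes. The common score floor sets a least gap between antibody and input signal. The lowest fold that a listed peak can have is therefore higher where input is lower, as in library 1. The higher typical fold of library 1, and its larger shares at folds of at least 2 and 5, thus do not show stronger enrichment. A fold of at least 2 was reached by 1306 peaks of library 1 (88.0%) and 5547 of library 2 (74.4%). A fold of at least 5 was reached by 280 (18.9%) and 399 (5.35%). At a fold of at least 10 the shares met, with 24 peaks (1.62%) and 116 peaks (1.56%).

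Antibody and input signal were tied together more closely in library 1. Across its 1484 peaks Spearman's rho between them was 0.86, and 0.84 over the 1406 nuclear peaks. In library 2 rho was 0.48 across 7459 peaks. Both signals of a peak share the genomic place and the score floor, which alone forces the antibody signal above the input, so these are descriptions of the lists. Fold fell as input rose in both lists, with rho of -0.95 in library 1 and -0.77 in library 2. Fold also fell as antibody signal rose in library 1 (rho -0.70), but not in library 2 (rho 0.10). A high fold therefore marks unlike peaks in the lists. Score and fold ranked library 2 peaks alike (rho 0.63), but not library 1 peaks (rho -0.07, or 0.08 over nuclear peaks). Of the peaks with a score of at least 1, the median fold was 1.53 in library 1 and 3.59 in library 2. The library 1 value includes mitochondrial peaks, whose folds were 1.08 to 1.72, and 52 of its nuclear peaks reached this score.

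**Figure D1:**
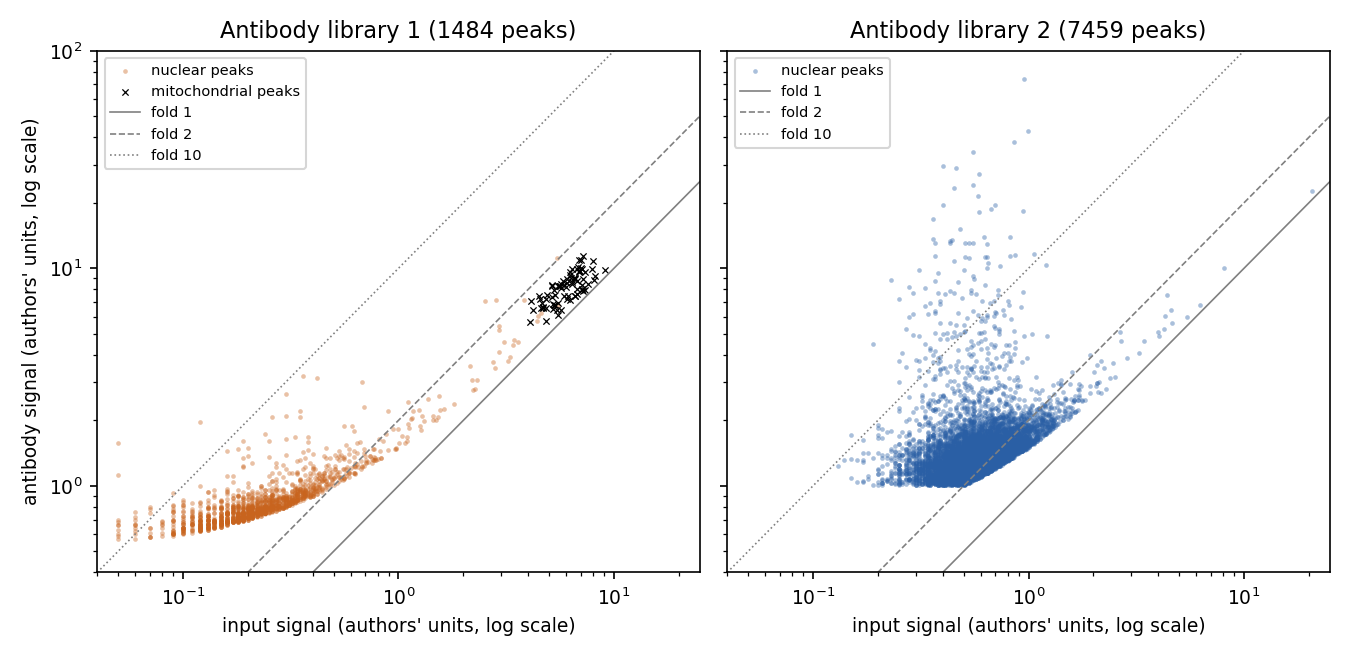
Antibody signal against input signal for every peak of each library, both on log axes in the authors' units, with lines at folds of 1, 2 and 10. Library 1 peaks run along the score floor up to the 78 mitochondrial peaks at inputs of 4.06 to 9.06, whereas library 2 has peaks that stand far above the floor at inputs under 1, up to an antibody signal of 74.09.

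The highest-scoring places were of different kinds in the libraries. Of the 10 top scores in library 1, 6 lay on the mitochondrial genome, the small circular genome that is present in many copies per cell. The other 4 were nuclear with inputs of 2.51 to 5.45 and folds of 1.87 to 2.82. The first of them had an antibody signal of 11.11 and an input signal of 5.45 and lay 869 bp from LOC592601. None of the 10 was shared with library 2. The top 10 of library 2 had inputs of 0.40 to 0.99 and folds of 36.95 to 73.37, and 5 of them overlapped a library 1 peak. Its leading pair of peaks lay side by side within LOC581646, with antibody signals of 42.67 and 38.17 against inputs of 0.99 and 0.86. The third was at Nanos2, a translational regulator of the germline, with an antibody signal of 34.4 against an input of 0.55.

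The contrast was partial further down the nuclear lists. Among the 100 highest-scoring nuclear peaks of library 1, 24 had a fold under 2, 17 had an input signal of at least 2 and 30 had a fold of at least 5, with a median fold of 3.38 and a median input of 0.4. All 100 of the highest-scoring library 2 peaks had a fold of at least 5, none had an input of at least 2, the median fold was 17.995 and the median input 0.545. An input of at least 2 thus set apart a minority of these library 1 peaks. Their median input was nonetheless above the nuclear median of 0.22 in the same list, whereas that of library 2 was near the 0.57 of its list. The scaling is not given, so an input of 2 need not mean the same in both. High-input places were present in both lists nonetheless. Nuclear peaks with an input of at least 2 numbered 24 in library 1 (1.71%) and 30 in library 2 (0.402%), with a median fold of 1.36 in each.

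Library 1 covered most of the mitochondrial genome with peaks, and library 2 had no peak there. The 78 mitochondrial peaks were 5.26% of the library 1 list. They covered 10070 bp between positions 115 and 15410 and touched all 13 protein-coding genes listed on it, among them CYTB, COX2 and ND5 of the respiratory chain. Antibody signal there ran from 5.65 to 11.35 and input from 4.06 to 9.06, which gave folds of 1.08 to 1.72. Mitochondrial input was thus far above the nuclear median of 0.22 in the same list.

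The deposited false discovery rate did not fall steadily with the score. In library 2 it had a median of 28.5% for scores from 0.5 to 1 and 6.65% for scores from 1 to 2. It then rose to a median of 14.7% for scores from 2 to 5, 33.5% from 5 to 10 and 60.6% for the 36 peaks with a score of at least 10. The single highest-scoring peak, in LOC581646, had a rate of 0%, and the fourth, in LOC100888338, had 83.33%. In library 1 no peak had a rate under 10%, and the lowest was 10.9%. In library 2 1628 peaks had a rate under 10%, of which 1 had a score above 2. A threshold of 10% on this rate would therefore leave out the GATAe, Wnt8 and FoxA peaks described further on.

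Peak density varied strongly along the genome and in parallel in both libraries. The 21 large scaffolds of the Spur_5.0 assembly span 828 Mb and held 99.5% of library 2 peaks and 94.3% of library 1 peaks. Library 1 had between 0.534 and 2.75 peaks per Mb on them, a 5.16-fold range. Library 2 had between 2.16 and 20.2, a 9.39-fold range. Protein-coding genes varied far less, from 23.9 to 34.5 per Mb. NW_022145606.1 was the sparsest scaffold in both libraries. NW_022145611.1 was the densest in library 2 and second in library 1 at 2.72 peaks per Mb, while NW_022145615.1 led library 1 at 2.75. Of the peaks on these scaffolds, the 5 densest in library 2 held 46.5% in library 2 and 36.7% in library 1, with 26.3% of the length and 28.4% of the genes.

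Across the 21 scaffolds the densities of both libraries had a Spearman's rho of 0.86 and a Pearson's r of 0.86. Gene density had a rho of 0.62 with library 1 and 0.71 with library 2, and the median length of gene spans had 0.68 and 0.69. Both libraries were placed on the same scaffolds, which differ in gene density and gene length. Base composition and mappability were not available, so no p is attached. The parallel was weaker for peaks with a fold of at least 5, where rho between the libraries was 0.39. The median fold, which the score floor holds within bounds, ran from 2.18 to 2.57 between scaffolds in library 2 and from 2.76 to 3.88 in library 1. The high-fold peaks varied more. In library 2 the density of peaks with a fold of at least 5 had an 11.6-fold range between scaffolds, and their share of the peaks ran from 1.69% (4 of 237, on NW_022145604.1) to 11.8% (25 of 212, on NW_022145607.1, which carries brachyury). In library 1 that share ran from 9.76% to 29.4%, and it was highest on NW_022145604.1, where library 2 had its lowest.

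**Figure D2:**
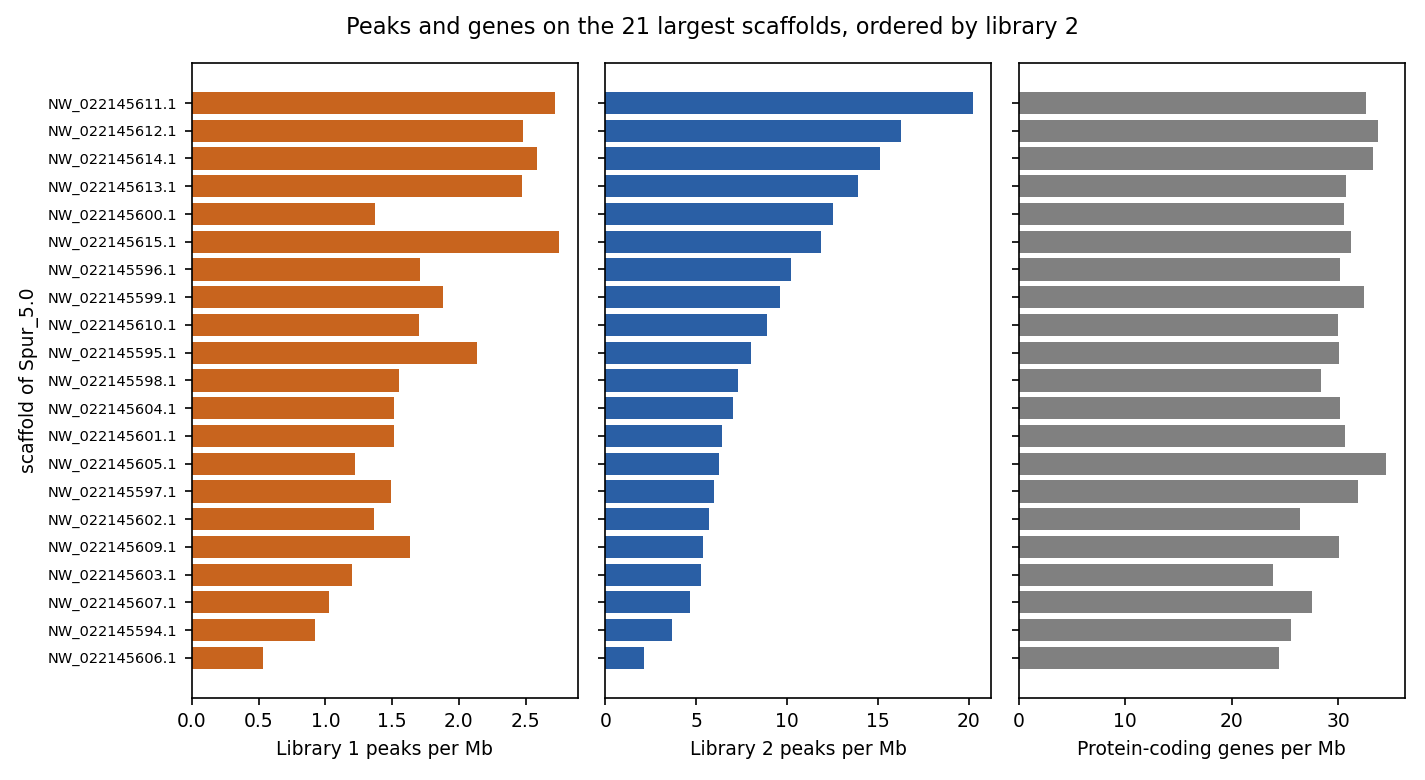
Nuclear peaks of each antibody library and protein-coding genes per Mb on the 21 large scaffolds, as bars ordered by library 2 density. Library 2 ranges from 2.16 to 20.2 peaks per Mb and library 1 from 0.534 to 2.75, with a rank correlation of 0.86 but with exceptions such as NW_022145600.1, which is 5 in the order of library 2 and 15 in that of library 1, while gene density stays between 23.9 and 34.5.

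Peaks of both libraries were bunched along the scaffolds. A neighbour of the same list lay within 5 kb for 34.6% of library 2 peaks and 20.1% of library 1 peaks, or 15.7% of its nuclear peaks. The longer list of library 2 has more neighbours by number alone. When its 1484 highest-scoring peaks were taken, 17.2% had a neighbour within 5 kb, close to the nuclear share of library 1. The libraries differed at high fold: 16.3% of the 399 library 2 peaks with a fold of at least 5 had another such peak within 5 kb, against 2.86% of the 280 in library 1. Library 1 peaks with a fold of at least 5 were thus mostly isolated, with a median gap of 1535683 bp against 566756 bp in library 2. These sets differ in number and in kind, since high library 1 folds went with low input and low antibody signal. The highest library 1 fold, 33.54, had an antibody signal of 1.57 against an input of 0.05, the lowest of the list. In library 2 the highest fold, 77.94, had 74.09 against 0.95.

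The density of neighbours fell with distance. Around a nuclear library 1 peak there were 56.9 other library 1 peaks per Mb within 0.5 kb and 2.82 per Mb between 50 and 100 kb, a 20.2-fold drop. Around a library 2 peak the density of library 2 peaks fell 5.01-fold, from 98.1 to 19.6 per Mb. Library 2 peaks around library 1 peaks fell 15.3-fold, from 265 to 17.3 per Mb. Most of that fall was at once, to 92.5 per Mb between 0.5 and 1 kb. Beyond 0.5 kb the library 2 density around a library 1 peak ran close to that around a library 2 peak, at 65.4 and 60.2 per Mb between 1 and 2 kb. Midpoints within a list were at least 76 bp apart in nuclear library 1 and 148 bp in library 2. Midpoints of different lists could coincide, so the first bin is not alike within and between lists.

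**Figure D3:**
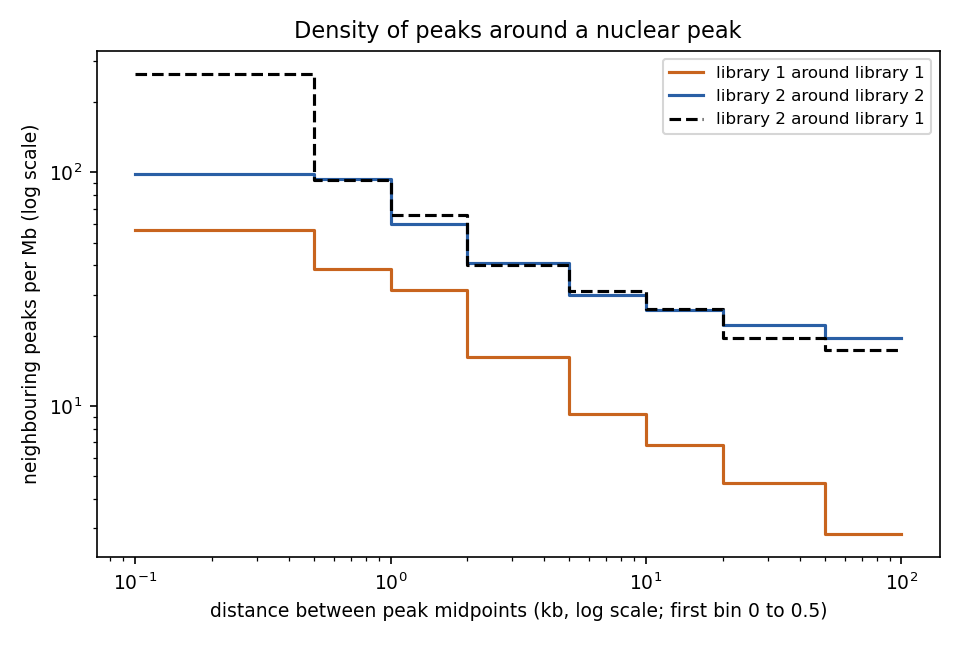
Density of peaks per Mb at increasing distance from a nuclear peak, on log axes, for each library around itself and for library 2 around library 1. Library 2 peaks around library 1 peaks start at 265 per Mb within 0.5 kb and then follow the curve of library 2 around itself.

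Chains of peaks joined at 5 kb differed in fold. Library 2 had 273 chains of at least 3 peaks and library 1 had 19 on nuclear scaffolds. The longest library 2 chain held 16 peaks at LOC580672 on NW_022145609.1, from 29536043 to 29564911. Its folds were only 1.23 to 1.91 and its median input was 2.07, and 9 library 1 peaks fell within it. The chain of 10 peaks at LOC105440110 was alike, with folds of 1.47 to 2.25 and inputs of 1.01 to 1.93.

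The chains at FGFR and brachyury had high folds. The first held 11 library 2 peaks within FGFR, the receptor for fibroblast growth factors, on NW_022145600.1 from 15801455 to 15815440. Folds there were 3.76 to 30.76 at inputs of 0.37 to 1.21, with a median of 0.63 near the 0.57 of the whole list, and no library 1 peak fell within the chain. The second held 8 peaks over brachyury itself (LOC576774), with folds of 5.80 to 28.77 at inputs of 0.25 to 0.86, again with no library 1 peak. Such inputs also went with low folds: a chain of 8 peaks at LOC579027 had inputs of 0.44 to 0.94 and folds of 1.65 to 2.80, and one at LOC576916 had inputs of 0.49 to 0.81 and folds of 1.96 to 3.12. Among the nuclear chains of library 1, the longest held 7 peaks on NW_022145595.1 between 29971838 and 29977693. No gene span lay within 10 kb of it, its median input was 2.92 and its folds were 1.30 to 4.39.

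Peaks of both libraries overlapped by at least 1 bp at 259 pairs, which involved 249 peaks of each list. That was 16.8% of library 1 (95% Wilson interval 15.0 to 18.8, for counting error only) and 3.34% of library 2 (2.95 to 3.77). With midpoints required to lie within 50 bp the shares were 9.23% and 1.84%. The nearest library 2 peak was a median of 9539.5 bp from a nuclear library 1 peak, and 27.0% of them had one within 1 kb. For 8.82% none lay within 100 kb.

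Overlap was most frequent among the strongest library 2 peaks. Of library 2 peaks with a fold of at least 2, 3.25% overlapped library 1. The share was 6.35% at a fold of at least 3, 22.8% at 5, 42.2% at 10 and 59.1% at 20. The course was not even at the low end. In 10 equal bins by fold, the lowest bin (folds of 1.09 to 1.77) overlapped at 5.63%, above the 0.938% to 2.55% of the next 8 bins, and the highest at 13.8%. By input, the highest bin overlapped at 7.64%. By score overlap reached 50.0% of the 94 peaks with a score of at least 5 and 72.2% of the 36 with at least 10. Library 1 peaks showed no such rise with fold: 17.6% of those with a fold of at least 2 overlapped library 2, 15.1% at 3 and 15.7% at 5. At a fold of at least 10 it was 7 of 24 peaks, with a Wilson interval of 14.9% to 49.2%. Library 1 overlap was higher at higher score, antibody signal and input signal, and the last pair are correlated in that list. By input it was 9.22% in the lowest of 10 equal bins, 33.6% in bin 9 and 22.7% in the highest. Of the 141 nuclear peaks with the highest scores 45.4% overlapped, and of the 141 with the lowest scores 11.3%.

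At the 249 library 1 peaks paired with their best overlap, rho between the libraries was 0.59 for antibody signal, 0.48 for score, 0.36 for fold and 0.30 for input. The paired values share the place and its copy number in the assembly. Antibody signal in library 2 was higher at 247 of the 249 places, with a median ratio of 2.41, and input was also higher, with a median ratio of 2.33. These levels come from lists whose scaling is not given and whose peaks differ in width, so the ratios describe the deposited numbers only. The fold was higher in library 2 at 126 places and in library 1 at 123, with a median ratio of 1.02.

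The even split concealed a wide spread of folds. A fold of at least 2 in both libraries was found at 178 of the 249 places, at least 3 at 81 and at least 5 at 22. At 73 places the fold was at least 5 in library 2 alone and at 22 in library 1 alone. The libraries also met at places of high input: 7 pairs had an input of at least 1 in both, with folds of at most 1.80 in library 1 and 1.72 in library 2, and 3 of these lay at LOC580672. The overlap rule itself bounds the distance between midpoints. Its median was 44 bp and its largest value 206 bp, and 170 library 1 peaks lay wholly inside their partner.

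**Figure D4:**
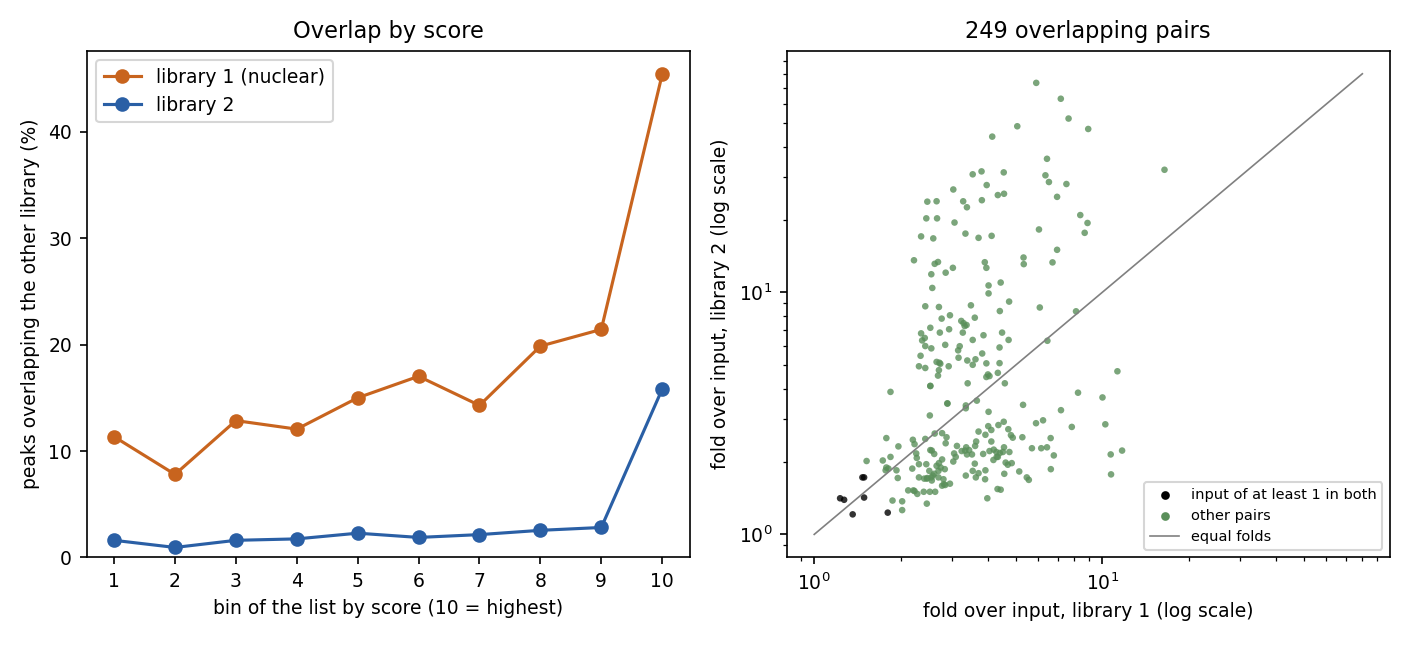
Left, share of peaks that overlap the other library, in percent, by score, in 10 bins of equal size per list. Right, fold over input in both libraries at the 249 paired places, on log axes, with pairs of high input in black. The highest bin has the largest share in each list (45.4% and 15.8%) and holds 64 of the 249 overlapping peaks of library 1 and 118 of the 249 of library 2, and the pairs spread on both sides of the line of equal folds.

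The places strongest in both libraries were ranked by the lower of the pair of folds. First came a place on NW_022145602.1, at 26189814 to 26189949 in library 1. Its antibody signal was 1.97 against an input of 0.12 in library 1 and 9.84 against 0.31 in library 2, for folds of 16.45 and 32.10. The nearest gene span, LOC578134, lay 12246 bp away. Inside LOC105445029 the folds were 8.89 and 19.35, at antibody signals of 3.21 and 18.27. This gene has a log2 fold change of -1.23 between morphants and controls in the authors' deposited table, whose numerator is not given. Folds at LOC752681 were 8.69 and 17.62, and at LOC581325, 6189 bp away, 8.39 and 20.86. The places at LOC581142, 7942 bp away, and inside LOC591190 had the largest imbalance among the first 10. Folds were 7.64 and 52.26 at the former and 7.18 and 63.09 at the latter. At LOC100891454 they were 7.51 and 28.03, and at LOC105446948 6.97 and 14.99. The places ranked 2 and 6 had no gene within 10 kb.

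Brachyury's own gene carried a row of high-fold peaks in library 2 and had no library 1 peak within 10 kb. Its span runs from 32932889 to 32949306 on NW_022145607.1. Library 2 listed 9 peaks within 10 kb, 7 of them inside the span, and all 9 had a fold of at least 5. The highest antibody signals were 10.56 against an input of 0.65, near the upper end of the span at 32948307 to 32948590, and 10.26 against 0.74 near the lower end at 32934172 to 32934455. The highest fold, 28.77, belonged to the adjacent peak at 32934568 to 32934851, with an antibody signal of 8.17 and an input of 0.28. The nearest library 1 peak lay at 32921567 to 32921702, outside the 10 kb window. Its antibody signal was 1.2 against an input of 0.51, a fold of 2.34, and it overlapped a library 2 peak of fold 5.47. Whether library 1 had weaker signal over the gene itself, under the score floor, cannot be read from the list.

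FGFR, which transmits fibroblast growth factor signals into the cell, had 17 library 2 peaks, 16 inside its span, and none in library 1. Antibody signal was highest at 15813752 to 15814035, with 18.21 against an input of 0.59. A further 13 of the 17 also had a fold of at least 5. At FGF, a ligand of the same pathway (Fgf9/16/20 in the authors' table), library 2 had 4 peaks with folds of 2.80 to 12.95. Library 1 had 1 peak there, with an antibody signal of 0.64 and a fold of 6.73, at none of the library 2 places.

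At GATAe, a GATA factor of the endoderm and mesoderm, library 2 held 6 peaks. Its highest antibody signal anywhere, 74.09 against an input of 0.95, lay near the upper end of the span at 360312 to 360595 on NW_022145613.1. That peak's distribution score of 0.07 was the lowest in the list and brought its score to 4.96. A pair of peaks near the lower end had signals of 27.01 and 21.43 against inputs of 0.59 and 0.58. The only library 1 peak in GATAe had a signal of 0.68 against 0.15 and lay between these, at 344324 to 344459, overlapping none of them.

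Wnt8 and FoxA showed the opposite picture, a single strong place found by both libraries. Wnt8 is a vegetal signalling ligand, and its 1 peak in each library lay inside the gene at 3238447 to 3238582 on NW_022145595.1 in library 1. Antibody signal there was 2.1 against an input of 0.3 in library 1 and 13.13 against 0.53 in library 2, for folds of 6.97 and 24.81. FoxA encodes a forkhead factor of the endoderm. Its shared place lay 1477 bp beyond the upper end of the span, with signals of 2.22 against 0.35 and 13.01 against 0.37, for folds of 6.43 and 35.63. The other pair of library 2 peaks at FoxA had folds of 1.88 and 1.96.

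**Figure D5:**
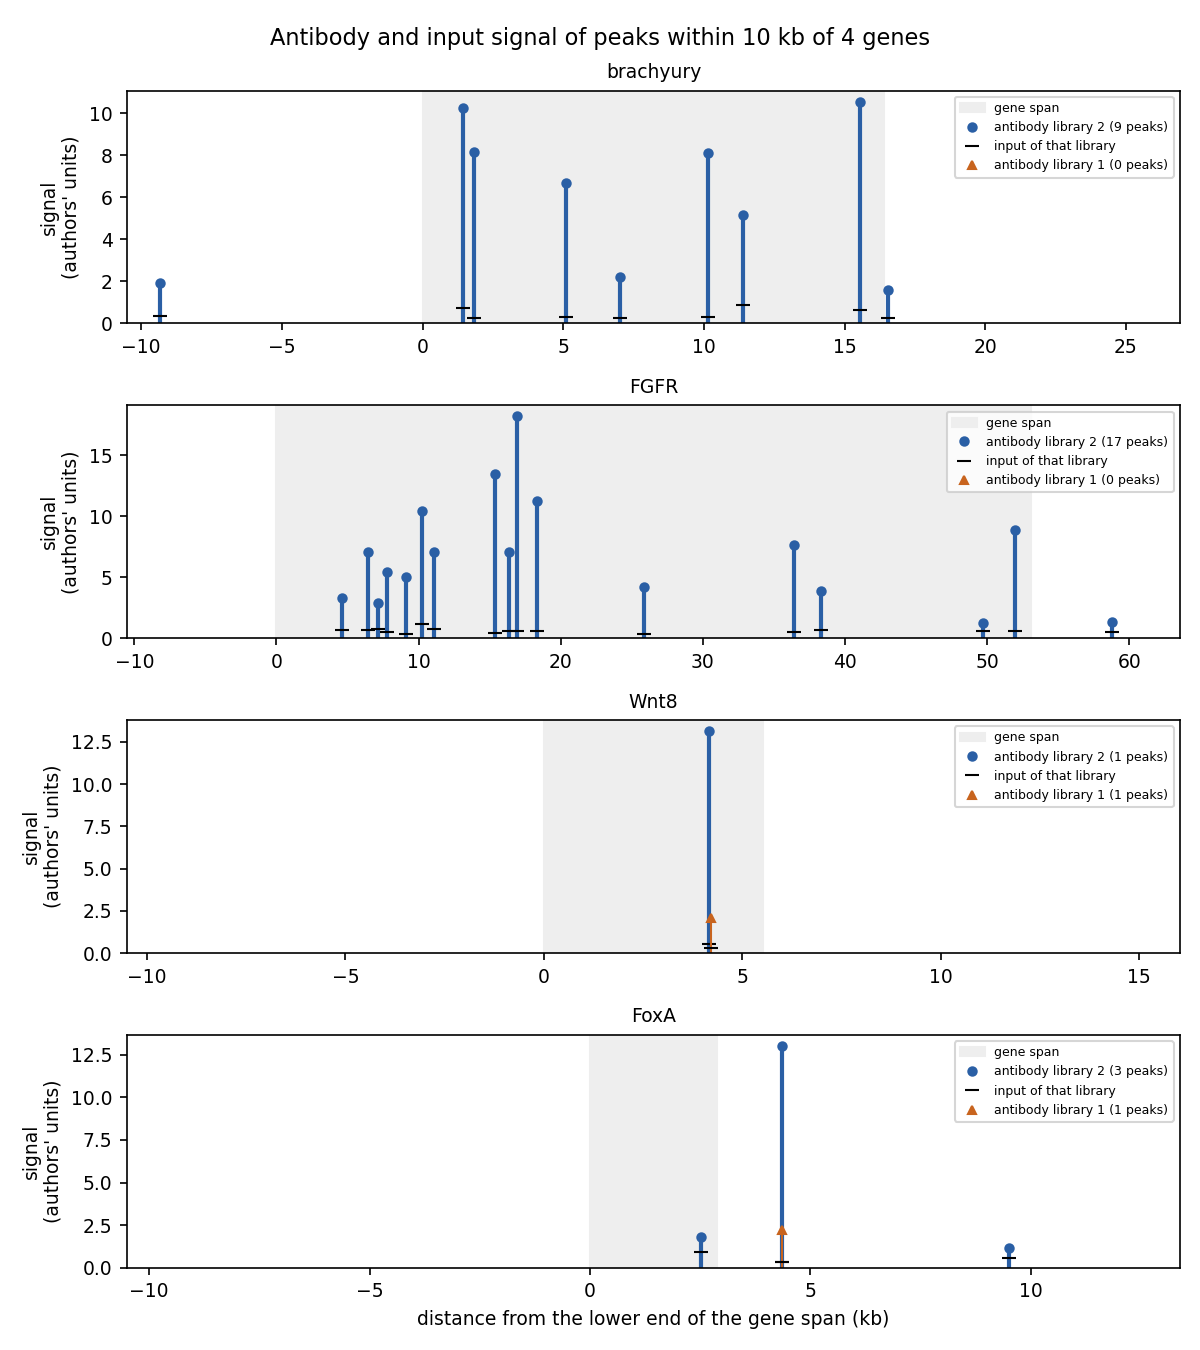
Antibody signal (points on stems) and input signal (black dashes) in the authors' units for every peak within 10 kb of brachyury, FGFR, Wnt8 and FoxA, by distance in kb from the lower end of the gene span (grey). Brachyury and FGFR carry 9 and 17 library 2 peaks and none of library 1, whereas Wnt8 and FoxA have a place listed in both libraries.

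Genes of the developmental lists were then counted by whether a peak midpoint lay within 10 kb of the span. Across 24774 nuclear protein-coding genes, library 1 marked 5.81%, library 2 marked 21.4% and both marked 3.48%. A gene marked by both has a peak of each list within 10 kb, and these peaks need not overlap. Among the list genes they overlapped at Wnt8 and FoxA, for example, but not at GATAe or FGF. Of 102 developmental genes, 26 (25.5%) had a library 1 peak, 61 (59.8%) a library 2 peak and 20 both, or 25, 60 and 19 of 101 when an overlapping pair of gene models at SM50 is counted once. Their spans were longer, with a median of 17128 bp against 10226.5 bp for all genes, which offers a peak more room. Inside the span alone the shares were 17.6% and 46.1% of developmental genes against 3.21% and 13.05% of all genes. With peaks of a fold of at least 5 they were 9.80% and 19.6% against 1.40% and 1.35%. A further limit is naming, since 83 of the 102 could be named because they are in the authors' deposited table of changed genes. Of the 19 named otherwise, 4 had a library 1 peak and 15 a library 2 peak.

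Endoderm regulators, the factors that specify the gut, had the highest library 1 share of the lists with more than 2 genes. A library 1 peak was found at 7 of 14 (50%), and each of these also had a library 2 peak, while library 2 marked 11 (78.6%). Over all genes the shares were 5.81% and 21.4%. The 14 stand for 12 list members, since dac and nk1 each have a pair of gene models. Both dac models were marked by both libraries, and neither nk1 model by any. Besides FoxA and GATAe they include otx, a homeobox factor, with 2 library 1 peaks of folds 2.31 and 2.93 over the same library 2 peak of fold 4.95. At blimp1/krox, a zinc finger factor, the shared place lay 9376 bp below the span, with folds of 3.91 in library 1 and 13.32 in library 2. At hh, the Hedgehog ligand, the libraries marked different places, with folds of 3.43 in library 1 and at most 5.05 in library 2. The dac homologue was split over a pair of gene models. A place 8355 bp from the shorter one, LOC115918252, was shared, with signals of 1.59 against 0.38 in library 1 and 24.21 against 0.55 in library 2. At the longer one, LOC586986, each library had 2 peaks and none of them overlapped the other library. Folds there were 4.17 and 5.27 in library 1 and 1.70 and 2.71 in library 2. Gut effectors, the differentiation genes of the same tissue, were marked at 1 of 6 in each library, the cytoskeletal linker gene Macf1. No peak was listed at Endo16.

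T-box and Wnt genes had library 2 peaks more often than library 1 peaks, as did all genes (21.4% against 5.81%). Tbx2/3, a T-box factor of the aboral ectoderm, had 6 library 2 peaks, 5 of them beyond the upper end of its span, and 1 library 1 peak of fold 3.38 that overlapped a library 2 peak of fold 7.33. Of 8 Wnt ligands and components, 6 had a library 2 peak, and Wnt4 and Wnt8 had peaks in both. At wnt1 library 2 had 5 peaks, the highest with a signal of 7.74 against an input of 0.45. Wnt4 had 2 library 1 peaks, with folds of 5.01 and 3.68, that overlapped no library 2 peak.

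In the mesoderm, library 2 marked 11 of 17 non-skeletogenic genes (64.7%), library 1 marked 4 (23.5%) and both marked 3. Over all genes the shares were 21.4%, 5.81% and 3.48%. Tgif, a homeobox factor, had a shared peak with folds of 2.74 and 5.07. The pigment polyketide synthase gene Pks1 had a shared peak with folds of 3.53 and 2.14. The pigment cell regulator gcm had 5 library 2 peaks with folds of 2.17 to 4.33, and GATAc, a zinc finger factor of this tissue, had 8 with folds of 1.80 to 3.27, with no library 1 peak at either. At Ese, an Ets family factor, each library had a peak at a different place. Of 20 skeletogenic genes, which build the larval skeleton, library 1 marked 7, library 2 marked 8 and both marked 4. These counts include SM50, a spicule matrix gene, and LOC105437370, a gene model within its span with the same 3 peaks. Counted once, they leave 6, 7 and 3 of 19, or 31.6% for library 1 and 36.8% for library 2. At dri, an ARID-domain factor, the peaks were shared, with folds of 3.17 and 5.37. Single library 1 peaks at FoxN2/3 and at SM50 lay apart from those of library 2.

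Of the 33 ectodermal and neural genes, 3 (9.09%) had a library 1 peak and 20 (60.6%) a library 2 peak, beside 5.81% and 21.4% of all genes. None of 6 oral ectoderm genes had one, against 4 with a library 2 peak, among them Gsc and FoxG. Of 18 aboral genes library 1 marked 2 and library 2 marked 8. SPEC1, a calcium-binding protein of the aboral ectoderm, had 3 library 2 peaks 3218 to 6470 bp below its span, with folds of 11 to 18.5. Of 9 apical neural genes library 2 marked 8 and library 1 marked Isl, a LIM homeobox factor, where the peaks of both libraries did not overlap. Of the 2 germline genes, Nanos2 was marked by library 2 and vasa, an RNA helicase gene, by library 1. Ribosomal protein genes stood near the genome as a whole, with 3 of 62 (4.84%) marked by library 1, 11 (17.7%) by library 2 and both at Rpl4 and Rpl6. Their spans were short, with a median of 6076 bp.

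By exact coordinates, the authors' combined set of 490 peaks matched almost wholly library 2 peaks. It contains 488 library 2 peaks, 168 of them overlapping library 1, and 2 library 1 peaks. Library 2 peaks inside the set had a median fold of 5.66, against 2.31 for those outside. Of the 399 library 2 peaks with a fold of at least 5, 289 were in the set, and of the 280 in library 1 none matched it exactly. A library 1 place can still be in the set through the wider library 2 peak over it. Of the 249 library 1 peaks paired with their best overlap, 172 had a partner in the set. Those at Wnt8 and FoxA, with library 1 folds of 6.97 and 6.43, were among them. The sources used here do not give the rule that made the set.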

How the data were processed

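ChIP libraries were 2 antibody and 2 input libraries, and each peak list pairs 1 antibody with 1 input library, per the labels. Antibody and input signal, fold enrichment (a ratio), score, distribution score (a fraction from 0 to 1) and false discovery rate (in percent) were deposited by the authors with each peak, as named in the headers of the lists. The submitters' processing notes list Trimmomatic 0.38, BWA 0.7.17, Salmon 0.11.3 and DESeq2 1.28.1 with no role or order. Which peak caller was used, and how signals were scaled, is not stated in the sources used here. Quoted log2 fold changes, and the adjusted p-value under 0.05 by which the table was filtered, are those the authors deposited.

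Starts were read as counted from 0 and are given from 1. Peaks overlapped when they shared at least 1 bp, and chains joined midpoints within 5 kb. The Spur_5.0 gene table of RefSeq names no scaffold for nuclear genes, so scaffolds were inferred. Rows form blocks of rising start, and 21 blocks exceed 20 Mb. These were matched, by order, to the 21 scaffolds with more than 100 library 2 peaks. All peaks then ended before the last gene of their scaffold. The pairing is an inference, the table has no strand or exons, and genes on other scaffolds were left out. A peak was given to the nearest gene span within 10 kb.

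The members, gene lists and thresholds were chosen with earlier results of these data known. Genes named are those at the 10 highest scores, pairs and chains and list members with peaks in both libraries. The account of list genes marked by library 2 alone was chosen after their values were seen. Correlations across peaks or scaffolds carry no p, because places are not replicates. Overlap counting was checked on simulated peaks. Alternatives were other distances, overlap rules, score and fold thresholds. The Brachyury motif needs genome sequence and was not analysed here. Scripts ran in Python 3.11.15 with pandas 2.3.3, scipy 1.17.1, matplotlib 3.10.9 and numpy 2.4.6.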

Additional observations from a re-analysis of the deposited data

How the results depend on the processing

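No paired analysis was possible because each list holds 1 antibody library with its own input and no result comes from a test between samples, and leaving out a library leaves no list. Of 37 alternatives, 31 moved a value beyond its counting or sampling range, or a correlation beyond a fixed tolerance of 0.1, and 6 did not. With a score of at least 1 the median fold was 1.53 in library 1 and 3.59 in library 2. With that score required in both lists the overlap was 21.7% and 1.83%. The share with a neighbour within 5 kb at this score was 63.5% and 17.5%, and the share of genes 0.178% and 5.22%. The fold, overlap and neighbour values of library 1 at this score include mitochondrial peaks. Of its 52 nuclear peaks at this score, 25 (48.1%) overlapped library 2. A false discovery rate under 10% gave a median fold of 3.06 in library 2. The overlap was 9.23% and 1.84% with midpoints within 50 bp, and 14.8% and 2.87% with 50% of the shorter peak covered. The rank correlation between libraries at shared places was 0.59 for antibody signal and 0.48 for score in place of 0.36 for fold. Neighbours within 2 kb were found for 16.2% and 22.5%, and within 10 kb for 23.1% and 47.3%. Without the mitochondrial genome the library 1 share within 5 kb was 15.7%, and with as many top-scoring peaks library 2 gave 17.2%. Genes marked were 3.21% and 13.05% inside the span and 4.37% and 16.7% within 5 kb. Chosen after seeing the data, peaks of a fold of at least 5 marked 1.40% and 1.35% of genes and 9.80% and 19.6% of developmental genes, and the span alone 17.6% and 46.1% of the latter. The unknown depth limits what the absence of a peak can show.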
